A study of Sus scrofa with 15 samples.

Results

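The genes described here encode fatty acid desaturases and elongases, the enzymes that add double bonds and carbons to fatty acids, and they were measured in backfat of Iberian pigs fed olive by-products. They are 10 genes chosen by symbol: the desaturases FADS1, FADS2, FADS3 and SCD5, the elongases ELOVL1, ELOVL3, ELOVL5 and ELOVL7, the dehydratase HACD2 and the reductase TECR. Of these 10 genes, 9 matched a symbol in the name table used for the 30477 genes of the count files, and 8 passed the filter on low counts that left 14918 genes for testing. TECR had no match in that table and is not analysed here, and ELOVL3 was counted but was under the filter. The expression of the genes was compared between 3 diets by RNA-seq, with 5 pigs per diet and 1 library per pig.

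All pigs were of the Iberian breed, were about a year old at biopsy and had received their diet through the growing period. Control (C) pigs ate a compound feed in restricted amounts. Pigs of the dry olive pulp (DOP) group ate a restricted compound feed made with olive pulp. Pigs of the wet crude olive cake (WCOC) group ate a restricted compound feed without by-product, plus a silage of crude olive cake and barley straw to which they had free access. The compound feed of C was set at a higher share of free energy intake than those of DOP and WCOC. Feeding level and by-product therefore cannot be told apart in the comparisons with C. Each diet was given in 1 pen, so pen and diet cannot be told apart. The pigs used were chosen for the quantity and quality of their RNA. Libraries held 22373715 to 34745218 counts on genes. Run names place C 1 to 4 and all WCOC libraries on a flow cell called A here, and C 5 and all DOP libraries on a flow cell called B. Within flow cell A, C 1 to 4 and WCOC 1 to 3 were on lane 2, and WCOC 4 and WCOC 5 were on lane 8. A WCOC vs. DOP difference and a flow cell difference therefore cannot be told apart, and a DOP vs. C difference within a flow cell rests on C 5 alone.

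Long-chain fatty acids are lengthened in the endoplasmic reticulum by a cycle in which an elongase condenses the acyl chain with malonyl-CoA, and a ketoreductase (HSD17B12), a dehydratase (an HACD protein) and an enoyl reductase (TECR) complete the added carbons. The elongase sets which chains enter the cycle. FADS2 and FADS1 alternate with ELOVL5 to turn dietary linoleic and linolenic acids into arachidonic acid and other polyunsaturated fatty acids, whereas SCD and ELOVL6 act on the saturated products of fatty acid synthase and are abundant in fat tissue. Many of these genes are known targets of SREBP transcription factors, which are bound to sterol regulatory elements next to sites for NF-Y and Sp1.

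In the Sscrofa11.1 assembly, the 3 FADS genes lie together on chromosome 2. FADS3 (ENSSSCG00000013073) spans chr2:9607627-9627352 on the plus strand. FADS2 (ENSSSCG00000013072) spans chr2:9633941-9666666 on the minus strand, with 6588 bp between the 2 genes. FADS1 (ENSSSCG00000024015) spans chr2:9735425-9747405 on the plus strand, 68758 bp beyond FADS2. ELOVL5 (ENSSSCG00000024149) spans chr7:46860768-46932945 on the minus strand, and HACD2 (ENSSSCG00000034786) spans chr13:136834103-136933564 on the plus strand. ELOVL6 (ENSSSCG00000036236), an elongase outside the 10 genes that is used below for comparison, spans chr8:112038670-112190079 on the plus strand. RefSeq places long non-coding RNAs on the opposite strand within FADS2 (LOC106509334 and LOC100739565), FADS3 (LOC110259247), ELOVL6 (LOC110261988) and HSD17B12 (LOC102168147). The strand option of the counting is not given in the sources used here, so counts of these genes may include reads of those neighbours.

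The 250 bases before the annotated start of 3 genes are shown as examples: ELOVL5, the member with the highest level, ELOVL6, the elongase whose level differed between diets, and FADS2, which opens the polyunsaturated pathway. They are read 5′ to 3′ on the strand of the gene from the RefSeq Sscrofa11.1 sequence, at chr7:46932946-46933195 (minus strand) for ELOVL5, chr8:112038420-112038669 (plus strand) for ELOVL6 and chr2:9666667-9666916 (minus strand) for FADS2. Capitals mark matches on either strand. The E-box was searched as CACGTG, the site known for helix-loop-helix factors. The box bound by NF-Y was searched as CCAAT, and the GC box bound by Sp1 was searched as GGGCGG in the same way. The sterol regulatory element was searched as TCACNCCAC, and overlapping matches were counted apart.
ELOVL5: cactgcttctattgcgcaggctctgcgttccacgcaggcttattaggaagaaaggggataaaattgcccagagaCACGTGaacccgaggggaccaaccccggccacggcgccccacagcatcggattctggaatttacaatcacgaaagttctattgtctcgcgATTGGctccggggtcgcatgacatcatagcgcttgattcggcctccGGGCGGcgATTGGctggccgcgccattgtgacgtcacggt
ELOVL6: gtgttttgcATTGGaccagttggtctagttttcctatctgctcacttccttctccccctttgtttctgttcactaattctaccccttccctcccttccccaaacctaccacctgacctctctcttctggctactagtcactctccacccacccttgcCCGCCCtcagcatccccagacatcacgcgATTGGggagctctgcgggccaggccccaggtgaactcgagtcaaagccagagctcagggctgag
FADS2: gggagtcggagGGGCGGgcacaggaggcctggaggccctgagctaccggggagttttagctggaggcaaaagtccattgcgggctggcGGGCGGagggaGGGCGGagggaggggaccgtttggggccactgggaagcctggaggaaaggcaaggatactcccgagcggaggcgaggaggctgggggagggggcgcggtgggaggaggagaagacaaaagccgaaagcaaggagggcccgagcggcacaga
The ELOVL5 window held 1 E-box, 2 CCAAT boxes and 1 GC box, the ELOVL6 window 2 CCAAT boxes and 1 GC box, and the FADS2 window 3 GC boxes. None of the 3 windows held the letters of the sterol regulatory element. Of the genes that varied with ELOVL6 between pigs, as given below, HACD2 had 0 CCAAT boxes in its window and ELOVL5 had 2. Of those with a negative correlation with ELOVL6, FADS3 had 2 and FADS2 had 0. A relation between matches and correlations was not tested. Over 19556 windows of the same length before protein-coding genes, 6.39% held the E-box, 31.9% a CCAAT box, 45.9% a GC box and 0.803% the sterol regulatory element. These are matches of letters and not sites shown to be bound.

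None of the 8 tested genes differed between diets by the thresholds used for all genes, an adjusted p under 0.05 and a log2 fold change (log2FC) of at least 0.58 in size. In edgeR's quasi-likelihood test with Benjamini-Hochberg adjustment, 0 of 8 genes were called in DOP vs. C (background 0.764% of all tested genes), in WCOC vs. C (6.25%) and when WCOC was set against DOP (7.76%). Without the limit on size, 0 of 8 genes had an adjusted p under 0.05, beside 0.925%, 10% and 12.3% of all tested genes. An unadjusted p under 0.05 was reached by 2 of 8 genes in DOP vs. C, by 1 in WCOC vs. C and by 0 in WCOC vs. DOP, against 17.6%, 26.4% and 28.1% of all tested genes. DESeq2 and limma-voom each gave 0 called genes among the 8, and 2, 1 and 0 of them had an unadjusted p under 0.05. The values of no member were apart between any 2 diets, which was the case for 3.47% of all genes in DOP vs. C, 7.62% in WCOC vs. C and 8.9% in WCOC vs. DOP. The median log2FC of the 8 genes was 0.12 in DOP vs. C, 0.01 in WCOC vs. C and 0.05 in WCOC vs. DOP, while the median over all tested genes was 0.01, 0.0043 and 0.00067.

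**Figure D1:**
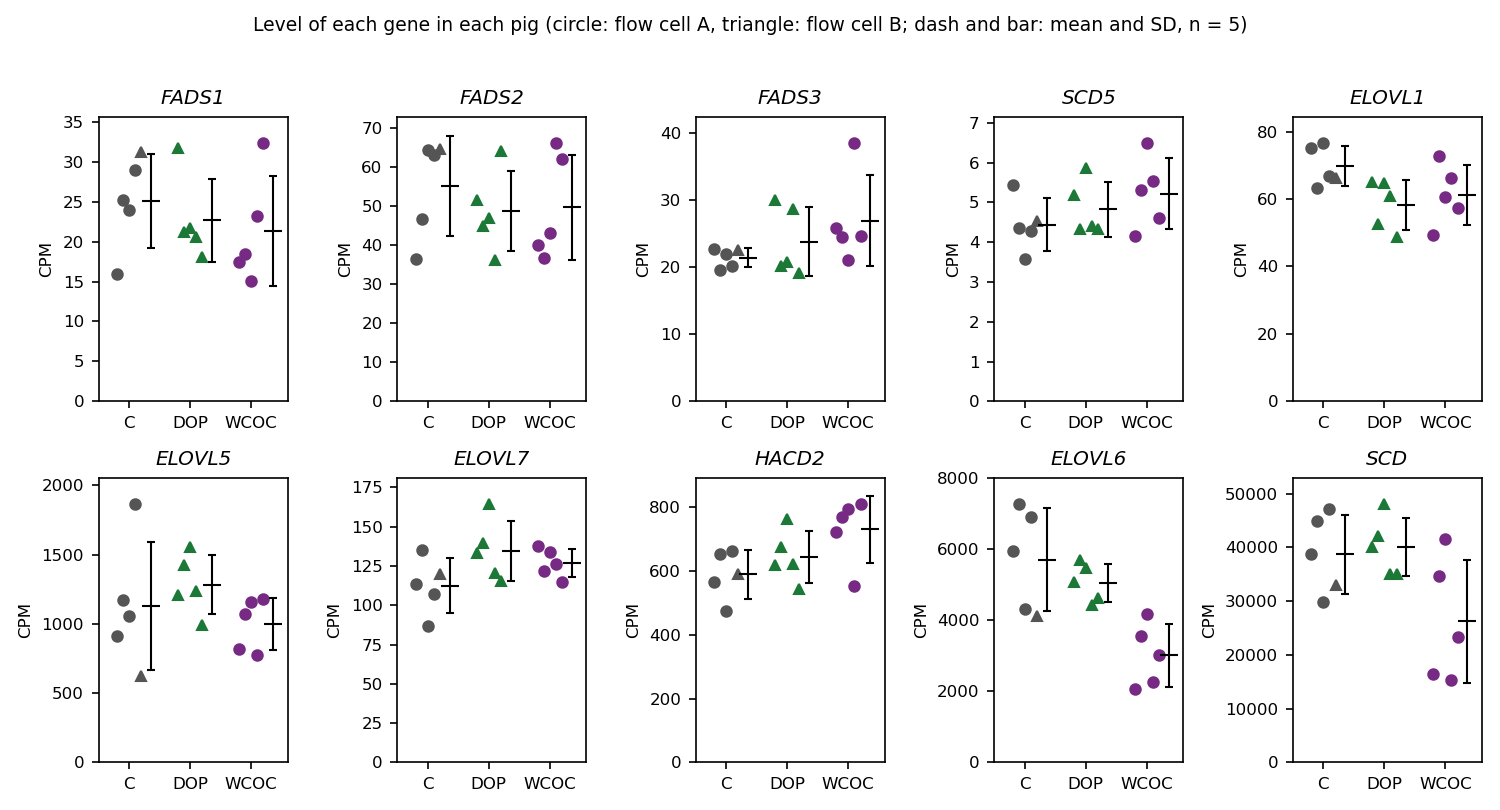
Level of 8 desaturase and elongase genes and, for comparison, ELOVL6 and SCD in each pig, in CPM scaled by TMM (linear axis from 0), by diet. Circles are libraries of flow cell A and triangles of flow cell B, and the dash and bar are the mean and SD of 5 pigs. The diets overlapped for each of the 8 genes, while all WCOC values of ELOVL6 were below all DOP values.

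FADS1, the desaturase that completes arachidonic acid, was measured at 15.9, 25.2, 24.0, 28.9 and 31.2 CPM in C 1 to 5 (CPM, a library's counts of a gene relative to its scaled total). It was at 31.7, 21.2, 21.7, 20.6 and 18.1 CPM in DOP 1 to 5, and at 17.5, 18.5, 15.1, 23.2 and 32.4 CPM in WCOC 1 to 5. In both by-product groups 1 pig stood above the other 4, slightly over the highest C pig. The other 4 were in or below the lower part of the C range. The highest WCOC pigs, WCOC 5 and WCOC 4, were those on lane 8. The log2FC of FADS1 was -0.15 (SE 0.22, adjusted p 0.781, edgeR) for DOP vs. C and -0.23 (SE 0.22, adjusted p 0.523) for WCOC vs. C.

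FADS2, which opens the pathway to the polyunsaturated fatty acids, was at 36.6, 46.7, 64.4, 63.2 and 64.8 CPM in C 1 to 5, at 51.7, 45.0, 47.0, 36.2 and 64.2 CPM in DOP 1 to 5, and at 40.2, 36.8, 43.3, 66.3 and 62.0 CPM in WCOC 1 to 5. The 3 diets shared nearly the same lowest and highest values, and the pigs of C and of WCOC were split between a lower and a higher level. In WCOC the higher level was that of WCOC 4 and WCOC 5, the WCOC pigs on lane 8. A lane difference and a difference between pigs cannot be told apart there. In C, pigs of lane 2 were on both levels. Its log2FC was -0.18 (SE 0.20, adjusted p 0.708) for DOP vs. C, -0.15 (SE 0.20, adjusted p 0.681) for WCOC vs. C and 0.03 (SE 0.20, adjusted p 0.948) for WCOC vs. DOP.

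FADS3, a desaturase of sphingoid bases, was at 19.6 to 22.8 CPM in the 5 C pigs, at 19.2 to 30.0 CPM in DOP and at 21.1 to 38.6 CPM in WCOC. The C pigs lay close together (SD 1.45 CPM, n = 5), and the wider spread of the other diets came from DOP 1 and DOP 4 and from WCOC 4. The log2FC for WCOC vs. C was 0.33 (SE 0.16, p 0.0570, adjusted p 0.204, edgeR). SCD5, an isoform of stearoyl-CoA desaturase, was at 3.57 to 5.44 CPM in C, 4.32 to 5.86 CPM in DOP and 4.16 to 6.50 CPM in WCOC. Its log2FC was 0.24 (SE 0.15, adjusted p 0.349) for WCOC vs. C.

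ELOVL1, which lengthens saturated and monounsaturated chains for sphingolipids, was at 75.2, 63.3, 76.7, 66.8 and 66.3 CPM in C 1 to 5. In DOP 1 to 5 it was at 65.0, 52.6, 64.8, 60.8 and 48.6 CPM, with only the lowest C value inside the DOP range. In WCOC 1 to 5 it was at 49.4, 72.8, 60.6, 66.2 and 57.4 CPM. The DOP vs. C log2FC was -0.26 (SE 0.11), with an unadjusted p of 0.0331 that became 0.242 after adjustment in edgeR, and the WCOC vs. C log2FC was -0.19 (SE 0.11, adjusted p 0.295).

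ELOVL7, an elongase of saturated long chains, was at 114, 135, 86.9, 107 and 120 CPM in C 1 to 5, at 133, 140, 165, 121 and 116 CPM in DOP 1 to 5, and at 138, 122, 134, 126 and 115 CPM in WCOC 1 to 5. The C pig with 86.9 CPM was the lowest of all 15, and DOP 3 was the highest. The DOP vs. C log2FC was 0.26 (SE 0.12), with an unadjusted p of 0.0386 that became 0.256 after adjustment in edgeR.

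ELOVL5, the elongase of polyunsaturated fatty acids, was at 911, 1171, 1060, 1868 and 627 CPM in C 1 to 5. It was at 1209, 1427, 1553, 1239 and 995 CPM in DOP 1 to 5 and at 822, 1069, 1158, 774 and 1177 CPM in WCOC 1 to 5. Both the highest and the lowest of the 15 pigs were C pigs, C 4 and C 5. The log2FC was 0.19 (SE 0.23, adjusted p 0.734, edgeR) for DOP vs. C, -0.17 (SE 0.23, adjusted p 0.681) for WCOC vs. C and -0.36 (SE 0.24, adjusted p 0.344) for WCOC vs. DOP. Without C 4, the ELOVL5 log2FC for WCOC vs. C was 0.08 (adjusted p 0.842) and that for DOP vs. C was 0.45 (adjusted p 0.313). With flow cell as a covariate, which leaves C 5 to carry the DOP vs. C comparison, the ELOVL5 log2FC was 1.03 (unadjusted p 0.0147, adjusted p 0.300) for DOP vs. C and -1.36 (unadjusted p 0.00666, adjusted p 0.279) for WCOC vs. DOP.

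HACD2, a dehydratase of the elongation cycle, was at 565, 653, 475, 664 and 592 CPM in C 1 to 5, at 618, 675, 763, 621 and 543 CPM in DOP 1 to 5, and at 724, 771, 796, 554 and 811 CPM in WCOC 1 to 5. In WCOC, 4 of 5 pigs were above the highest C pig, and WCOC 4 was below 4 of the C pigs. The log2FC for WCOC vs. C was 0.31 (SE 0.13), with an unadjusted p of 0.0296 that became 0.142 after adjustment in edgeR, and it was 0.30 (adjusted p 0.241) among the libraries of flow cell A alone.

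ELOVL3, an elongase known from brown fat and the sebaceous gland, had 9 counts in all over the 15 libraries. It was listed at 0, 2, 0, 0 and 0 counts in C 1 to 5, at 2, 0, 0, 0 and 0 counts in DOP 1 to 5, and at 2, 1, 0, 0 and 2 counts in WCOC 1 to 5. A count of 0 allows up to 3 counts, which is 0.0885 to 0.147 CPM in these libraries (counting error only). No library was above that limit, so no fold is given and no difference between diets was detectable at this depth.

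Per kilobase of RefSeq exon, the levels in the C pigs spanned a wide range. ELOVL5 was the highest of the 8 genes, at 389 ± 159 CPM per kb (SD, n = 5), followed by HACD2 at 155 ± 20.04, FADS2 at 37.0 ± 8.62, ELOVL7 at 25.6 ± 4.02, FADS1 at 19.1 ± 4.47, ELOVL1 at 18.2 ± 1.54, FADS3 at 10.4 ± 0.705 and SCD5 at 1.79 ± 0.272 CPM per kb. On the same scale ELOVL6 was at 1080 ± 275 and SCD at 6490 ± 1242 CPM per kb. The ranges of FADS2 and ELOVL7, of ELOVL7 and FADS1, and of FADS1 and ELOVL1 overlapped, and those of the other neighbours in the order did not. The middle of the order depended on the length used. Per kilobase of coding sequence, ELOVL7 (133 ± 20.8) and ELOVL1 (73.7 ± 6.26) were above FADS2 (41.3 ± 9.61) and FADS1 (19.1 ± 4.47). The RefSeq model of FADS1 has no untranslated region.

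The size of the difference between groups that these data leave open was given by the 95% intervals of the log2FC. They come from the fit without flow cell. For DOP vs. C and WCOC vs. DOP they therefore do not bound a change from diet alone. The ELOVL5 values with flow cell as a covariate, 1.03 and -1.36, lay outside its intervals in these comparisons, which ended at 0.69 and -0.86. In DOP vs. C, the interval lay within ±0.58 for 5 of 8 genes (FADS3, SCD5, ELOVL1, ELOVL7 and HACD2). In WCOC vs. C it did for 3 (SCD5, ELOVL1 and ELOVL7), and in WCOC vs. DOP for 7, the exception being ELOVL5. For FADS1, the WCOC vs. C interval ran from -0.70 to 0.23, and for FADS2 from -0.58 to 0.28. Variation between pigs of a diet differed among the genes. The biological coefficient of variation estimated by edgeR was 0.139 for ELOVL1, 0.149 for ELOVL7 and 0.172 for HACD2, below the median of all tested genes (0.187). It was 0.234 for FADS2, 0.252 for FADS1 and 0.275 for ELOVL5, which was higher than in 75.2% of genes.

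**Figure D2:**
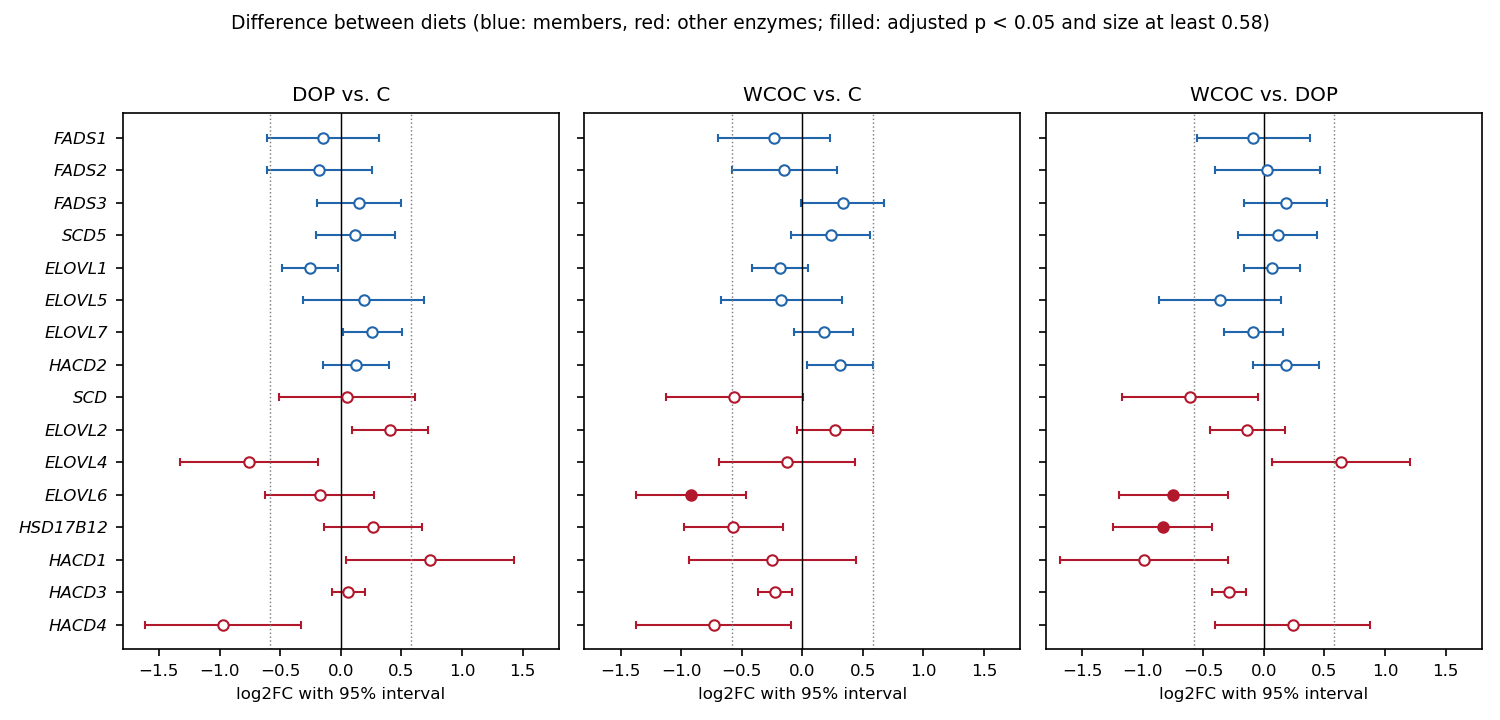
Log2FC with its 95% interval (x axis) of the 8 desaturase and elongase genes (blue) and of 8 other enzymes of desaturation and elongation (red) in the 3 comparisons, from edgeR fitted to 15 libraries. Filled points passed both thresholds and dotted lines mark ±0.58. Flow cell was not part of this fit. The 8 blue points are open in each panel, whereas ELOVL6 is filled in both panels of WCOC and HSD17B12 in WCOC vs. DOP.

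A few other enzymes of desaturation and elongation were called in the comparisons with WCOC. Of 18 such genes, 15 were tested, and 0 were called in DOP vs. C, 1 was lower in WCOC vs. C and 3 were lower in WCOC vs. DOP, with none higher. Of all tested genes, 0.55%, 3.93% and 5.11% were called lower in these comparisons, and 0.764%, 6.25% and 7.76% were called in either direction. The 1 of 15 called in WCOC vs. C is thus near the background. ELOVL6, which lengthens palmitic to stearic acid, was at 4120 to 7285 CPM in C (median 5952), at 4435 to 5703 CPM in DOP (median 5072) and at 2058 to 4192 CPM in WCOC (median 3026). All WCOC values were below all DOP values, and the highest WCOC pig was just above the lowest C pig. The ELOVL6 log2FC was -0.92 (SE 0.21, adjusted p 0.0163, edgeR) for WCOC vs. C and -0.75 (SE 0.21, adjusted p 0.0353) for WCOC vs. DOP. The WCOC vs. C call of ELOVL6 was kept in 20 of 20 alternatives, including flow cell A alone (-1.03, adjusted p 0.0456). That of WCOC vs. DOP was kept in 9 of 19 alternatives and in 3 of the 10 fits that left out 1 pig (log2FC -0.89 to -0.64). With flow cell as a covariate, its log2FC was -1.32 (adjusted p 0.293).

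HSD17B12, the ketoreductase of the elongation cycle, was at 247 to 540 CPM in WCOC and at 599 to 811 CPM in DOP, with no overlap. It fell by 0.83 on the log2 scale in WCOC vs. DOP (SE 0.19, adjusted p 0.0151, edgeR), a call kept in 18 of 19 alternatives and lost with flow cell as a covariate (adjusted p 0.253). Its WCOC vs. C log2FC was -0.57 (SE 0.19, adjusted p 0.0729). HACD3, another dehydratase, had a log2FC of -0.22 (SE 0.064, adjusted p 0.0397) in WCOC vs. C and -0.29 (SE 0.064, adjusted p 0.0134) in WCOC vs. DOP, under the limit on size. The remaining call, TECRL, a relative of TECR, was at 0.0402, 10.1, 0, 1.13 and 3.45 CPM in DOP 1 to 5 and at 0 to 0.196 CPM in WCOC. DOP 2 and DOP 5 were the highest, and DOP 1 and DOP 3 lay within the range of WCOC. Its call was kept in 6 of 17 alternatives and in 2 of the 10 fits that left out 1 pig. The summed skeletal muscle markers ran up to 40332 CPM in DOP, in DOP 5, and to 624 CPM in WCOC. They were at 9017 CPM in DOP 2, 5108 CPM in DOP 4, 196 CPM in DOP 3 and 31.0 CPM in DOP 1. Of the DOP pigs, DOP 5 was also the lowest in FADS1, FADS3, SCD5, ELOVL1, ELOVL5, ELOVL7 and HACD2 and the highest in FADS2. The part of muscle in the TECRL call and in the DOP values of the members was not tested. SCD, the main stearoyl-CoA desaturase of fat, ran from 15373 to 41535 CPM in WCOC and from 29850 to 47057 CPM in C, and its log2FC of -0.56 (SE 0.26, adjusted p 0.192) did not pass the test.

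To set the members against ELOVL6 directly, the log2 ratio of each gene to ELOVL6 was taken within each pig. This comparison was chosen after the fall of ELOVL6 had been seen, and each ratio contains that fall, so its p-values are not independent evidence. In WCOC vs. C the log2FC was -0.92 for ELOVL6 and had a median of 0.0043 over all tested genes. A gene without a change therefore has a higher ratio too. The share of all tested genes with such ratios was not computed, so the counts below are not a trait particular to the members. In WCOC vs. C the ratio was higher for 8 of 8 genes, by 0.68 (FADS1) to 1.24 (HACD2). For 4 of them, SCD5 (1.16), ELOVL5 (0.83), ELOVL7 (1.12) and HACD2 (1.24), the values of the diets did not overlap (exact permutation test over 10 pigs, two-sided, p 0.00794, the smallest it can give; adjusted p 0.0238 over 24 tests). FADS1 (p 0.135, exact permutation test) and FADS2 (p 0.103, exact permutation test) did not pass. In WCOC vs. DOP the ratio was also higher for 8 of 8 genes, by 0.42 to 0.97, and passed for SCD5, ELOVL1, ELOVL7 and HACD2 (adjusted p 0.0238, exact permutation test). In DOP vs. C the differences ran from -0.12 to 0.41 and 0 of 8 passed. Among the pigs of flow cell A alone, the WCOC vs. C differences of the 4 genes named above were 1.28, 0.75, 1.25 and 1.35.

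**Figure D3:**
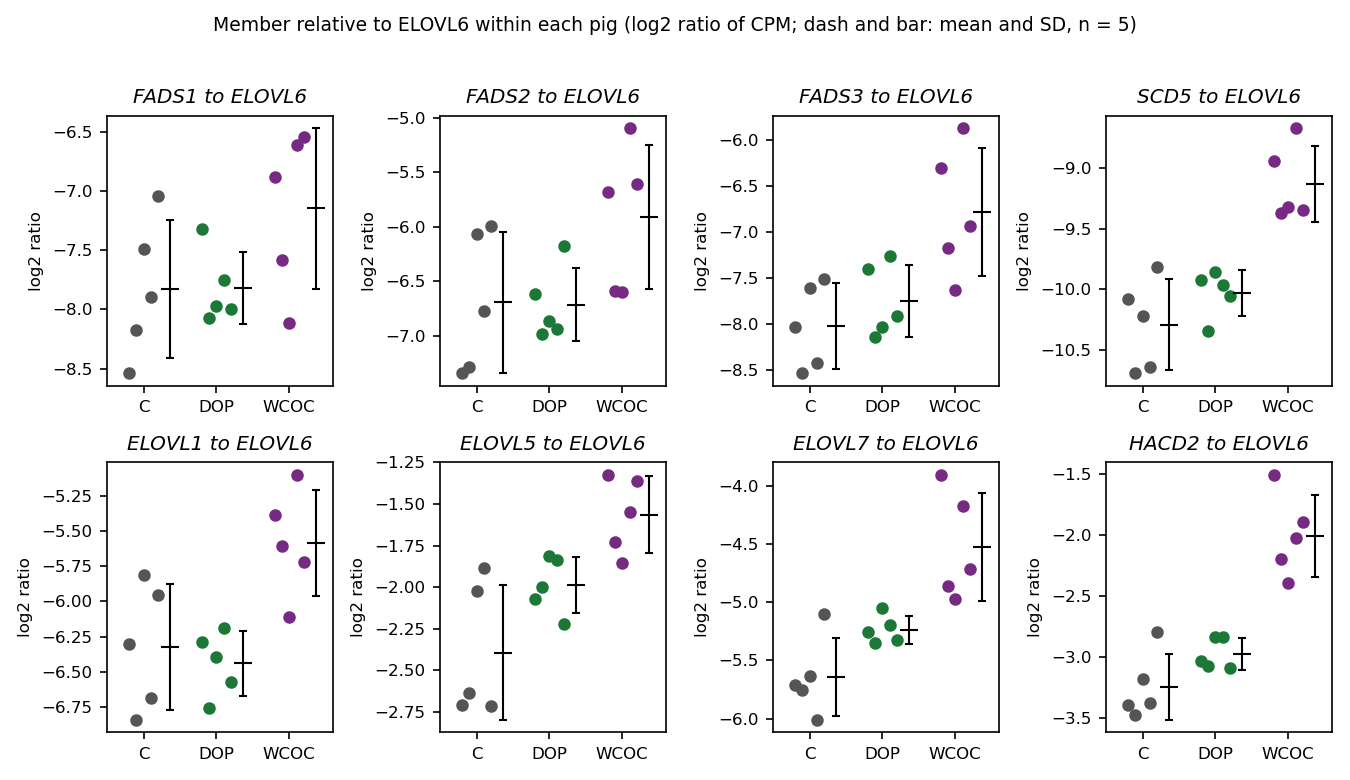
Log2 ratio of the CPM of each of the 8 genes to that of ELOVL6 within each pig (y axis), by diet, with the mean and SD of 5 pigs. The WCOC pigs lie above the C pigs without overlap for SCD5, ELOVL5, ELOVL7 and HACD2, and each ratio contains the fall of ELOVL6.

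Pigs of the same diet differed in a pattern that was not common to the 8 genes. After log2 CPM was centred within each diet, the correlation over the 15 pigs ran from -0.55 to 0.61 among the 28 pairs of members, with a median of 0.04, 16 positive pairs and 4 pairs over 0.5. These correlations share libraries and their scaling and are given as a description. FADS1 and FADS2 were the pair with the highest correlation (Pearson's r 0.61, Spearman's rho 0.58). It was 0.41 without the 2 pigs farthest from the median of FADS1 and 0.79 among the 9 pigs of flow cell A. These 9 pigs include WCOC 4 and WCOC 5, which were on lane 8 and above WCOC 1 to 3 in both genes.

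ELOVL5 and HACD2, and to a lesser degree SCD5, varied instead with FASN, ELOVL6 and SCD. The correlation of ELOVL5 was 0.75 with FASN, the fatty acid synthase, 0.71 with ELOVL6, 0.61 with SCD and 0.59 with HACD2. It was 0.75 with SREBF1, the gene of the lipogenic SREBP, and was 0.36 without the 2 farthest pigs. HACD2 had a correlation of 0.71 with SCD, 0.66 with ELOVL6, 0.54 with FASN and 0.41 with ACLY, another gene of fatty acid synthesis. For SCD5 the values were 0.55 with SCD, 0.52 with ACLY, 0.49 with ELOVL6 and 0.46 with FASN. The SCD5 value with FASN was 0.20 without the 2 farthest pigs. When the values were not centred within diets, that of HACD2 with ELOVL6 was -0.12. FADS3 had negative values with SCD (-0.60), HACD2 (-0.55) and ELOVL6 (-0.53), which were -0.76, -0.83 and -0.66 among the 9 pigs of flow cell A. The value with HACD2 was -0.28 without the 2 farthest pigs. FADS2 also had negative values with FASN (-0.49) and ELOVL6 (-0.33).

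**Figure D4:**
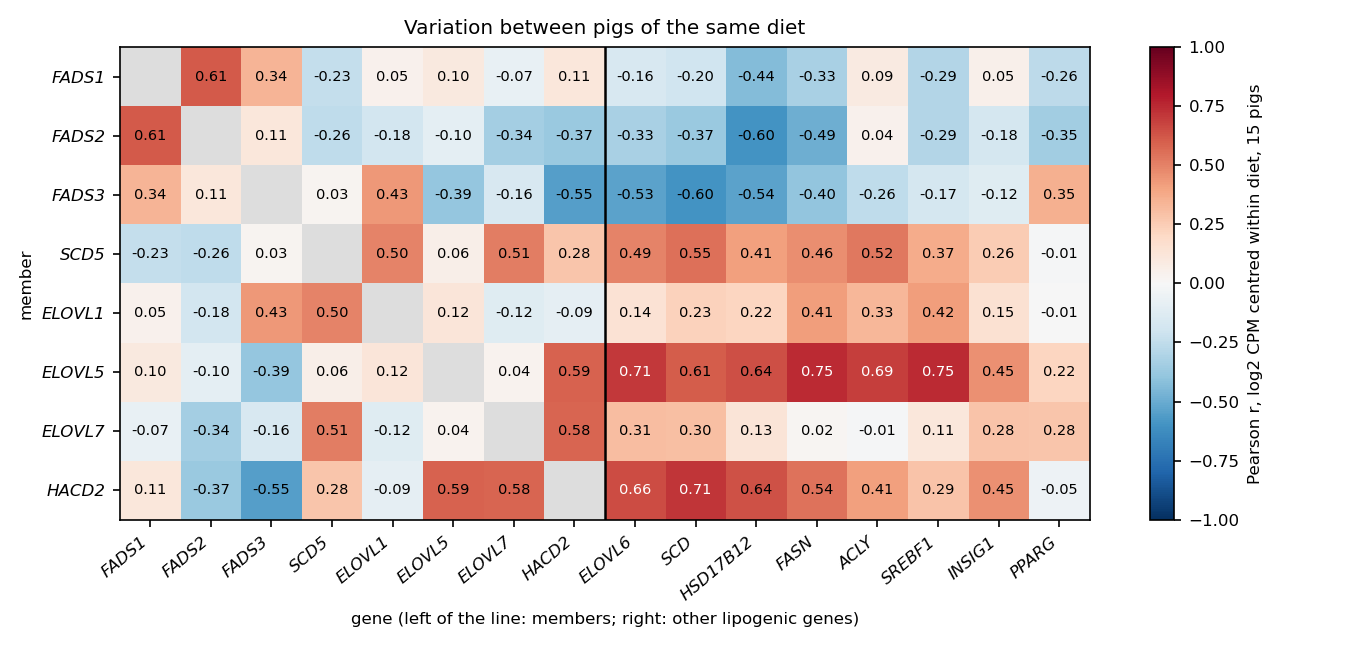
Pearson's r between each of the 8 genes (rows) and the 8 genes plus 8 other lipogenic genes (columns), from log2 CPM centred within diet over 15 pigs, on a colour scale from -1 (blue) to 1 (red). The ELOVL5 row reaches 0.75 with FASN and SREBF1, whereas the FADS2 row is at 0.61 with FADS1 and at -0.49 with FASN, and the FADS3 row is at -0.60 with SCD.

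Among 11132 genes with a symbol and a mean of at least 1 CPM, those whose centred values were most like FADS1 were ZC3H12A (r 0.89), WDR4 (0.86) and ZDHHC5 (0.84), over 15 pigs. For FADS2 they were UNK (0.89), U2AF2 (0.86) and HNRNPM (0.86). For ELOVL5 they included CROCC2 (0.91) and AGPAT1 (0.86). These were picked as the largest of 11132 values over only 15 pigs, are a description, and were not tested. The neighbours of the FADS genes, of which 3 were tested, had 0 called genes in each comparison. RAB3IL1 had the smallest p of these, with a log2FC of -0.37 (SE 0.20, adjusted p 0.248, edgeR) in WCOC vs. C, followed by TMEM258 (-0.22, SE 0.13, adjusted p 0.292).

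Genes of the pathways that feed and use these chains are given beside the background of 6.25% of all tested genes called in WCOC vs. C and 7.76% in WCOC vs. DOP. Of 7 tested genes of de novo fatty acid synthesis, 4 were lower in WCOC vs. C (ACLY -1.19, FASN -1.38, ME1 -1.55 and MID1IP1 -0.85 on the log2 scale, edgeR) and 4 in WCOC vs. DOP (ACLY, FASN, ACSS2 and ME1). In DOP vs. C, 1 was lower (MID1IP1, -0.82). The median log2FC of the 7 genes was -0.85 in WCOC vs. C, beside 0.0043 over all genes. Of 13 regulators of lipogenesis, 1 was called in WCOC vs. C, INSIG1, which retains SREBP in the endoplasmic reticulum and is itself an SREBP target (-0.77, SE 0.11, adjusted p 0.00133, edgeR), a share near the background. Of 6 tested genes of peroxisomal chain shortening, ABCD2, a transporter of very long chains, was higher (1.09 in WCOC vs. C and 0.96 in WCOC vs. DOP). Of 11 tested users of long acyl chains, ACSL1, an acyl-CoA synthetase, was lower in WCOC vs. C (-0.87) and WCOC vs. DOP (-1.26), and LPCAT3, which places polyunsaturated chains in phospholipids, was lower in WCOC vs. DOP (-0.66). The 1 of 11 called in WCOC vs. C is also near the background. In WCOC vs. C, the calls of ME1, MID1IP1, INSIG1 and ABCD2 were kept in every alternative, that of FASN in 18 of 20, that of ACLY in 14 of 20 and that of ACSL1 in 7 of 20 and in 2 of the 10 fits that left out 1 pig. The WCOC vs. DOP calls named here were each lost with flow cell as a covariate. With 1 pig left out, those of ACLY were kept in 2 of 10 fits, of ACSS2 in 1, of ABCD2 in 5 and of FASN in 8, and that of MID1IP1 in DOP vs. C was kept in 2 of the 10 fits that left out 1 pig.

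In bulk tissue, fewer cells of a type and less RNA per cell cannot be told apart. The calls of cell type markers below stand beside 0.764% of all tested genes called in DOP vs. C, 6.25% in WCOC vs. C and 7.76% in WCOC vs. DOP. A single call among 8 markers is not far from that share in the comparisons with WCOC. Adipocyte markers summed to 16251 to 21091 CPM in C, 18971 to 24569 CPM in DOP and 17154 to 25082 CPM in WCOC. Of 8 such markers, ADIPOQ was higher in WCOC vs. C (0.66) and PLIN4 (0.70) and LEP (1.08) in WCOC vs. DOP. Other adipocyte markers had values in the opposite direction: the log2FC of LPL was -0.40 (adjusted p 0.132, edgeR) in WCOC vs. C and -0.56 (adjusted p 0.0384, edgeR, under the limit on size, with no overlap) in WCOC vs. DOP, and that of CIDEC was -0.39 (adjusted p 0.211) and -0.51 (adjusted p 0.0921). With 1 pig left out, the calls of LEP were kept in 10 of 10 fits, of ADIPOQ in 6 and of PLIN4 in 5. Of 8 macrophage markers, 4 were lower in WCOC vs. C (CD68, CD163, MRC1 and MSR1), 1 was lower in WCOC vs. DOP (CD163) and 1 in DOP vs. C (MSR1), and they summed to 218 to 658 CPM in C, 147 to 376 in DOP and 106 to 278 in WCOC. With 1 pig left out, the WCOC vs. C calls of CD68 were kept in 10 of 10 fits, of MSR1 in 9 and of CD163 and MRC1 in 4 each, while MSR1 in DOP vs. C was kept in 3 and CD163 in WCOC vs. DOP in 6. Of 6 endothelial markers, 2 were higher in WCOC vs. C (ERG and CLDN5), each kept in 20 of 20 alternatives. In WCOC vs. DOP, 2 of 4 muscle markers (TNNT3 and ACTN3) passed as lower and 2 of 4 epidermis markers (KRT1 and DSG1) as higher, but with 1 pig left out these calls were kept in 5 of 10, 2 of 10, 4 of 10 and 3 of 9 fits. The epidermis markers summed to 144 CPM in WCOC 5 and 32.4 CPM in WCOC 2, against 3.08 to 3.88 CPM in the other WCOC pigs. In all, 0 of 6 T cell markers were called in any comparison, those with the smallest p being CD2 (-0.41 in WCOC vs. DOP, adjusted p 0.611, edgeR) and CD5 (0.32 in DOP vs. C, adjusted p 0.811, edgeR). The part of these cells in the results for ELOVL6 and HSD17B12 was not tested.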

How the data were processed

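RNA-seq of backfat was analysed from 15 libraries, 1 per pig. The authors aligned read pairs to Sscrofa11.1 with HISAT2, treating them as strand-specific, and counted them per gene with HTSeq, and they deposited these counts without scaling. Versions and the strand option of the counting are not given in the sources used here. Pairs that the counting did not assign to a gene, for any reason (23.4% to 32.8% of a library), were left out.

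In R 4.3.3, counts were fitted with edgeR 4.0.16 (filterByExpr by diet, TMM, quasi-likelihood test with 1 mean per diet over 15 libraries, Benjamini-Hochberg over 14918 genes), where the study itself used DESeq2. CPM was scaled by TMM and taken to log2 with 1 as prior count. DESeq2 1.42.0 and limma-voom (limma 3.58.1) were alternatives, with others of scaling, filter, samples, block and flow cell. Scripts were tested on simulated data. Libraries of different pigs correlated at 0.898 to 0.983 and none were identical. p-values measure the spread between pigs of 1 pen. Positions, lengths and sequences come from RefSeq (Sscrofa11.1), and figures used Python 3.11.15 and matplotlib 3.10.9.

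The members and lists were chosen with earlier results of these data known. Named are the members, SCD, ELOVL6, the called genes of the other lists (or the 2 with the smallest p) and the 3 genes most like FADS1, FADS2 and ELOVL5. ELOVL3 was not tested and got none. A few genes that this rule names are not reported here. HACD3 and the genes of the correlation plot were named after their values were seen. Same-numbered pigs of different diets did not deviate together (r over 0.1 in 3 of 15 pairs, range -0.50 to 0.34), so the number is not a pairing.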

Additional observations from a re-analysis of the deposited data

How the results depend on the processing

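No member was called under any alternative, and the direction of each member's log2FC held in all alternatives for DOP vs. C. The count of all called genes moved more. In DOP vs. C it was 114 and became 507 with DESeq2, 19 with limma-voom, 2 with only the diets compared, 0 with the replicate block (2623 genes had an unadjusted p under 0.05 without it) and 0 to 200 with 1 pig left out (0 without C 3, C 5, DOP 2 or DOP 4, 1 without DOP 5, 4 without DOP 3, 46 without C 4 and 200 without C 1). In WCOC vs. C it was 933 and became 486 in flow cell A alone, 1493 without the size limit, 473 with the replicate block and 468 to 1163 with 1 pig left out (532 without C 3, 468 without WCOC 1 and 596 without WCOC 4). In WCOC vs. DOP it was 1158 and became 1 with flow cell as a covariate, 1842 without the size limit, 561 with the replicate block and 639 to 1291 with 1 pig left out (731 without DOP 2, 699 without DOP 5, 639 without WCOC 1 and 700 without WCOC 4). With the block, the ELOVL6 log2FC of WCOC vs. DOP was -0.76 (adjusted p 0.0714). The pigs share only a number, so that block stands for no pairing.

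Directions reversed for small, uncalled values. With flow cell as a covariate, ELOVL6 was at 0.30 in DOP vs. C, and FADS1 at 0.32, ELOVL1 at -0.019 and ELOVL7 at 0.028 in WCOC vs. DOP. With the replicate block FADS2 was at -0.0043 in WCOC vs. DOP. With 1 pig left out, SCD ran from -0.036 to 0.13 in DOP vs. C, ELOVL5 from -0.32 to 0.081 in WCOC vs. C, and FADS1 from -0.29 to 0.060, FADS2 from -0.086 to 0.14 and ELOVL1 from -0.0022 to 0.14 in WCOC vs. DOP. The DOP vs. C ratios to ELOVL6 ran from -0.17 to 0.20 (FADS1), from -0.19 to 0.15 (FADS2) and from -0.25 to 0.0081 (ELOVL1). These fits of the ratios were added after the data were seen. With 1 pig left out the adjusted p of the HACD2 ratio stayed at 0.0190 to 0.0381 in WCOC vs. C, while that of ELOVL5 reached 0.0714, of ELOVL7 0.0544 (both without WCOC 1, 4 or 5) and of SCD5 0.0544 (without WCOC 4). In WCOC vs. DOP the adjusted p of the ELOVL1 and ELOVL7 ratios was above 0.05 without any 1 of the DOP pigs (up to 0.0544 and 0.0635). For the ratios named here in the comparisons with WCOC, the diets did not overlap with all pigs. Leaving out 1 pig cannot make them overlap. The ELOVL6 call of WCOC vs. DOP was lost without DOP 1, 2, 3 or 5 or WCOC 1, 4 or 5. The cause of these changes was not tested.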
